A study of Mus musculus with 219 samples.

Results

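The epiblast-rich and epiblast-poor twin blastocysts were 26 of the 38 twin blastocysts in a mouse series of 219 samples, and they were chosen by their own expression values. For every twin the mean of log2(CPM + 1) over Nanog, Sox2, Klf2 and Tdgf1 was taken as its epiblast score, where CPM is counts divided by the total of that library and scaled to 1e+06. The 13 twins with the highest score were called epiblast-rich, the 13 with the lowest epiblast-poor, and the 12 between them middle. Because the ranking used these 4 genes in these libraries, every difference between the 2 groups below is a description and carries no test. Tests were run only on what the ranking did not use, namely the pairing of the twins, the ICSI site, and the 31 intact blastocysts.

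Each embryo came from a B6C3F1 oocyte into which a CD1 sperm head was injected (intracytoplasmic sperm injection, ICSI) at 1 of 3 places relative to the meiotic spindle: contralateral to it, at its own side (ipsilateral here, isolateral in the sample labels), or at the equator. All embryos were cultured in KSOM with amino acids. Twin blastocysts arose from 2-cell embryos whose blastomeres were separated and cultured singly, so both twins of a pair share 1 oocyte, 1 sperm and 1 genotype, while intact blastocysts were never bisected. There were 12 contralateral, 14 ipsilateral and 12 equatorial twins from 19 embryos, and 11, 8 and 12 intact blastocysts. The 13 epiblast-rich twins came from 11 embryos and the 13 epiblast-poor twins from 10. An SD over 13 twins of a group thus includes sister twins. A whole blastocyst was lysed for each library, and no lineage was isolated.

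The blastocyst holds 3 lineages. The trophectoderm is the outer, fluid-pumping epithelium that forms the placenta, and it is the larger part of the embryo. The inner cell mass splits into the epiblast, which forms the body, and the primitive endoderm, which lines the cavity and forms yolk sac. Nanog, Sox2 and Klf2 encode transcription factors of naive pluripotency, and Tdgf1 (Cripto) encodes a co-receptor for Nodal that is abundant in the epiblast. Fgf4 made by epiblast precursors signals through Fgfr1 and Fgfr2 to neighbouring cells, which then become primitive endoderm. In a library from a whole blastocyst, fewer epiblast cells and less epiblast RNA per cell cannot be told apart.

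POU5F1 and SOX2 bind side by side at many pluripotency genes, to an octamer and a HMG-box element. The octamer ATGCAAAT, its 7-base core ATGCAAA and the element ACAATG were searched on both strands in the 250 bases before the start of each gene in RefSeq promoters of GRCm38.p6. Of the 4 ranking genes, Nanog and Sox2 had a match to the octamer core, and they are shown here with matches to the core or to ACAATG in capitals. The Nanog window, the first of 2 RefSeq entries, is chr6:122707239-122707488 on the plus strand, and the Sox2 window is chr3:34649745-34649994 on the plus strand.
Nanog: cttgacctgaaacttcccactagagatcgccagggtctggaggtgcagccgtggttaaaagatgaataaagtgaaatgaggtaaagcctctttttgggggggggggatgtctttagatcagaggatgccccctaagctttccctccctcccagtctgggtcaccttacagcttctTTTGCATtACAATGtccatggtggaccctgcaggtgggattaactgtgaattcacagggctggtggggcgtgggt
Sox2: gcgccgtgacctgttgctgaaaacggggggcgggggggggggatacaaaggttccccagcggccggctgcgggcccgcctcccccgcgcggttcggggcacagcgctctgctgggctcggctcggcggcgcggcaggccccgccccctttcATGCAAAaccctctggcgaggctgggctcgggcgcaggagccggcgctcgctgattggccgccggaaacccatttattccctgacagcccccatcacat
In Nanog the core began 75 bases before the start, on the reverse strand, and ACAATG began 67 bases before it, so the 2 elements stood 1 base apart. In Sox2 the core began 99 bases before the start, on the forward strand. Of all 32851 promoters of this length, 4.12% held the core, 1.60% the full octamer and 10.7% ACAATG. The windows of Klf2, Tdgf1, Esrrb, Klf4, Fgf4, Triml1, Pdpn, Ak3, Vamp4, Zfp780b, Gata2, Krt7 and Dppa1 held none of the 3 motifs, and 1 of 2 Pou5f1 windows held ACAATG. A match is a description of letters only.

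The score formed a continuum, with no gap at either edge of the groups. Epiblast-rich scores ran from 5.96 to 6.49 with a median of 6.09, and epiblast-poor scores ran from 4.33 to 5.47 with a median of 5.28. The lowest rich twin, ICSI_Is_twin_129a (ipsilateral), was at 5.96, and the highest middle twin, ICSI_Eq_twin_131b (equatorial), was at 5.95. At the other edge, ICSI_Co_twin_124b (contralateral) in the middle group was at 5.50, and ICSI_Is_twin_119a (ipsilateral) in the poor group was at 5.47. The name epiblast-poor is relative to the other twins, since all 4 ranking genes had counts in every poor twin. The poor median of 5.28 was also above the median score of the intact blastocysts, 4.49. Intact libraries were shallower, and whether a unit of score means the same in both kinds was not tested.

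**Figure D1:**
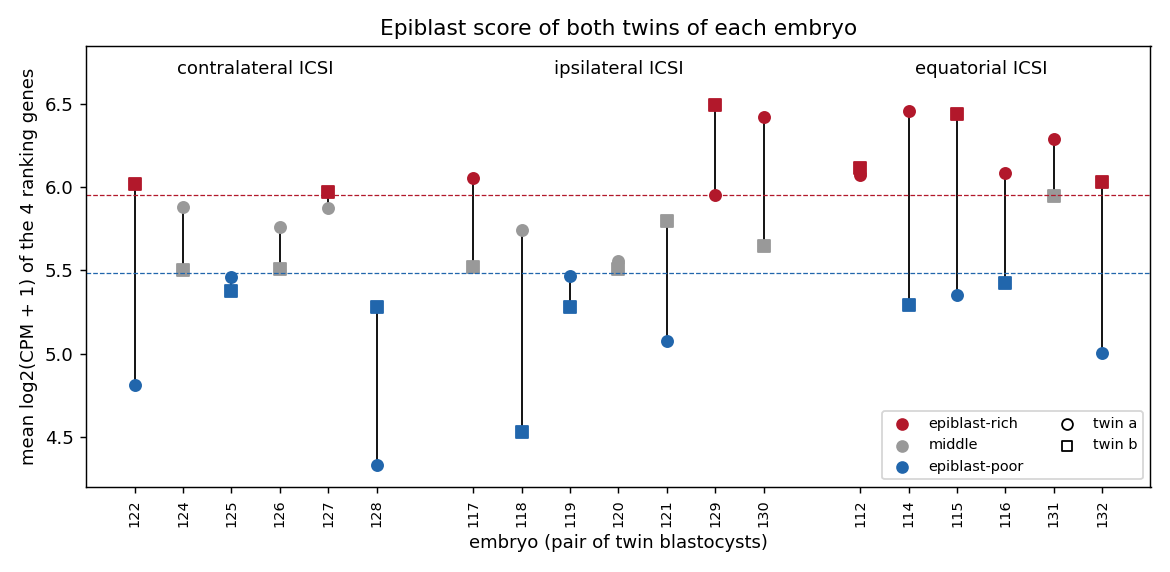
Epiblast score (mean log2(CPM + 1) of Nanog, Sox2, Klf2 and Tdgf1, y axis) of both twins of each of the 19 embryos (x axis), by ICSI site. Circles are twins a, squares twins b, lines join twins of 1 embryo, colours give the group, and dashed lines are the edges of the groups; 5 embryos, 4 of them equatorial, have 1 twin in each group.

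Of the ranking genes, Klf2 separated the groups most and Nanog least. Klf2 ranged from 4.51 to 6.23 log2(CPM + 1) in rich twins (median 5.61) and from 3.33 to 5.01 in poor twins (median 4.02), a mean difference of 1.47. Sox2 ranged from 5.25 to 6.89 in rich twins (median 5.90) and from 2.46 to 5.91 in poor twins (median 4.67), a mean difference of 1.31. The 3 lowest Sox2 values, 2.46 in ICSI_Co_twin_122a, 3.48 in ICSI_Is_twin_118b and 3.57 in ICSI_Co_twin_128a, belonged to the 3 lowest scores. Tdgf1 lay between 6.55 and 7.92 in rich twins (median 7.56) and between 5.41 and 7.24 in poor twins (median 6.79), a mean difference of 0.85. Nanog lay between 4.52 and 6.56 in rich twins (median 6.06) and between 4.27 and 6.42 in poor twins (median 5.52), a mean difference of 0.60, and its groups overlapped over most of their range. ICSI_Co_twin_122a carried the highest Nanog value of the poor group, 6.42, together with the lowest Sox2 value of all twins.

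Each ranking gene was also compared in groups ranked by the other 3 genes, so that its own value did not place a twin. Ranked without Sox2, its mean was 5.89 ± 0.47 (SD, n = 13) in rich and 4.65 ± 1.03 in poor twins, and ranked without Klf2, Klf2 was at 5.30 ± 0.59 and 4.31 ± 0.61. Ranked without Tdgf1, Tdgf1 was at 7.30 ± 0.44 and 6.88 ± 0.56, a difference of 0.42 that was smaller than both SDs. Nanog likewise differed by 0.37 (5.76 ± 0.61 and 5.38 ± 0.60). The difference in means was larger than both SDs for Sox2 (1.245) and Klf2 (0.98), and smaller than both for Nanog and Tdgf1. No twin moved from the rich to the poor group in any of these rankings, and between 9 and 12 twins of a group stayed in it.

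Sequencing depth and library complexity overlapped between the groups. Total counts ran from 713410 to 1612581 in rich twins and from 922773 to 2161062 in poor twins. Poor twins had the higher median total, 1.22e+06 against 1.06e+06. Genes detected ran from 11577 to 13069 in rich and from 10605 to 13247 in poor twins. The twin with the fewest genes, ICSI_Co_twin_122a with 10605, was in the poor group. Mitochondrial genes took 1.20% to 1.81% of counts in rich and 0.912% to 1.78% in poor twins. Oocyte transcripts were close to absent: the 10 maternal genes together reached at most 7.09 CPM in a rich and 14.1 CPM in a poor twin. Cumulus markers, 3 of 9 of which had no count in any twin, summed to 9.33 to 116.8 CPM in rich and 12.6 to 150.6 CPM in poor twins.

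Across the other 10139 genes with at least 10 counts in at least 10 twins, few genes stood apart between the groups. A gene was called apart if its mean log2(CPM + 1) differed by at least 1 and by more than the larger SD of both groups. By this size rule 13 genes (0.128%) were higher and 11 (0.108%) lower in epiblast-rich twins, and no gene outside the ranking had groups without overlap. The difference had a median of 0.01 over all these genes, and 52.2% of them were above 0. Of the 24 genes, Tdh and Esrrb belonged to a list of lineage genes.

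Tdh and Esrrb were the 2 apart genes that belonged to the list of other epiblast genes. Tdh encodes threonine dehydrogenase, a mitochondrial enzyme on which mouse pluripotent cells depend, and it lies on chromosome 14 from 63492347 to 63509092 of GRCm38. Its values ran from 2.49 to 5.66 log2(CPM + 1) in rich twins (median 4.75) and from 0.00 to 5.50 in poor twins (median 2.46), and 2 poor twins had no count. The mean was 4.27 ± 1.04 (SD, n = 13) in rich and 2.55 ± 1.58 in poor twins, a difference of 1.72. Esrrb encodes a nuclear receptor that sustains naive pluripotency and is also made in early trophoblast, on chromosome 12 from 86361117 to 86521628. It ran from 4.44 to 6.32 in rich twins (median 5.77), from 2.72 to 6.44 in middle twins (median 5.06) and from 2.54 to 5.66 in poor twins (median 4.44). Its mean was 5.58 ± 0.64 in rich and 4.41 ± 0.85 in poor twins, a difference of 1.17. The groups of both genes overlapped.

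The other 5 named genes were higher in epiblast-rich twins. Rbfaos, annotated opposite to Rbfa, had the largest difference, 2.30, with 2.04 to 7.06 in rich (median 4.96) and 0.00 to 4.77 in poor twins (median 2.95). Counting ignored strand, so reads of Rbfaos and Rbfa could not be told apart where they overlap; Rbfa itself differed by -0.28. Trps1, a GATA-type zinc finger repressor, lay between 2.76 and 5.10 in rich twins (median 3.59) and between 0.00 and 4.57 in poor twins (median 1.51), a difference of 1.83. Triml1, a TRIM-family gene of the early embryo, lay between 2.14 and 5.74 (median 4.67) against 0.80 and 5.20 (median 3.34), a difference of 1.45. Epb41l4a, a FERM-domain gene, differed by 1.22. Pdpn, which encodes the membrane glycoprotein podoplanin, was between 4.86 and 6.41 in rich twins (median 5.24) and between 2.87 and 5.47 in poor twins (median 4.09), a difference of 1.18.

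Ak3, Vamp4 and Zfp780b were the named genes that were lower in epiblast-rich twins. Ak3, the mitochondrial GTP:AMP phosphotransferase, ran from 0.00 to 4.86 in rich twins (median 3.93) and from 4.02 to 6.12 in poor twins (median 4.91), a difference of -1.52. Vamp4, a vesicle SNARE of the trans-Golgi network, ran from 1.16 to 4.44 in rich and from 4.22 to 5.68 in poor twins (medians 3.75 and 4.78), a difference of -1.23. These ranges overlapped only between 4.22 and 4.44, the narrowest overlap of the named genes lower in rich twins. Zfp780b, a zinc finger gene, differed by -1.22. All 10 named genes kept their sign within each ICSI site. The sites split the same twins that chose the genes, so this is no separate evidence. The smallest of these within-site values were a Zfp780b difference of -0.10 between 2 rich and 5 poor contralateral twins and a Tdh difference of 0.51 between 7 rich and 4 poor equatorial twins. Of 5 lineage genes also compared within sites, Klf4, Gata2 and Dppa1 kept their sign at each site, and Pou5f1 and Krt7 had the opposite sign in contralateral twins (-0.01 and 0.08).

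Among the other epiblast genes that were not apart, Bmp4, Etv5 and Klf4 had the largest differences (1.51, 0.79 and 0.67). The Etv5 difference was less than its SD of 1.67 in poor twins, whose lowest value was 0. Its medians were 6.03 in rich and 5.62 in poor twins. Of 22 listed genes 20 were measured, and 18 had a higher mean in rich twins, beside 52.2% of all measured genes. Of the 20, 2 were apart, beside 0.128% of all genes higher and 0.108% lower, and the median difference was 0.19 beside 0.01. That median was 0.41 when ranked without Nanog, 0.37 without Sox2, 0.30 without Klf2, 0.30 without Tdgf1, 0.33 with 19 twins a group and 0.10 within the opposite pairs. The mean level of the list was higher in the twin with the higher score in 11 of 19 pairs, and in 3 of the 5 opposite pairs. The summed level of the 22 genes was 3830 to 4768 CPM in rich twins (median 4265). In poor twins it was 3637 to 4264 CPM (median 3988). Pou5f1, the POU factor of the inner cell mass that is still present in early trophectoderm, ran from 7.62 to 8.71 in rich twins (median 7.89) and from 6.84 to 8.31 in poor twins (median 7.62), a difference of 0.38. Klf4, a pluripotency factor related to Klf2, had a median of 6.49 in rich and 5.87 in poor twins and differed by 0.67 with SDs of 0.50 and 0.47. Bmp4, a signal of the early inner cell mass, differed by 1.51, less than its SD of 2.24 in poor twins, and 1 rich and 2 poor twins had no count. Gdf3, a TGF-beta ligand, differed by 0.58 and Prdm14, a germline and pluripotency regulator, by 0.56, both by less than their SDs, and Nr0b1 was below the count minimum. Fgf4, the signal to primitive endoderm, had medians of 4.86 in rich and 3.82 in poor twins but a mean difference of only 0.15, with 1 rich twin at 0. Dppa5a, a pluripotency gene that is abundant in the whole blastocyst, was at 10.03 ± 0.13 and 10.05 ± 0.22, and Klf5 had the lowest difference of the list, -0.12.

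**Figure D2:**
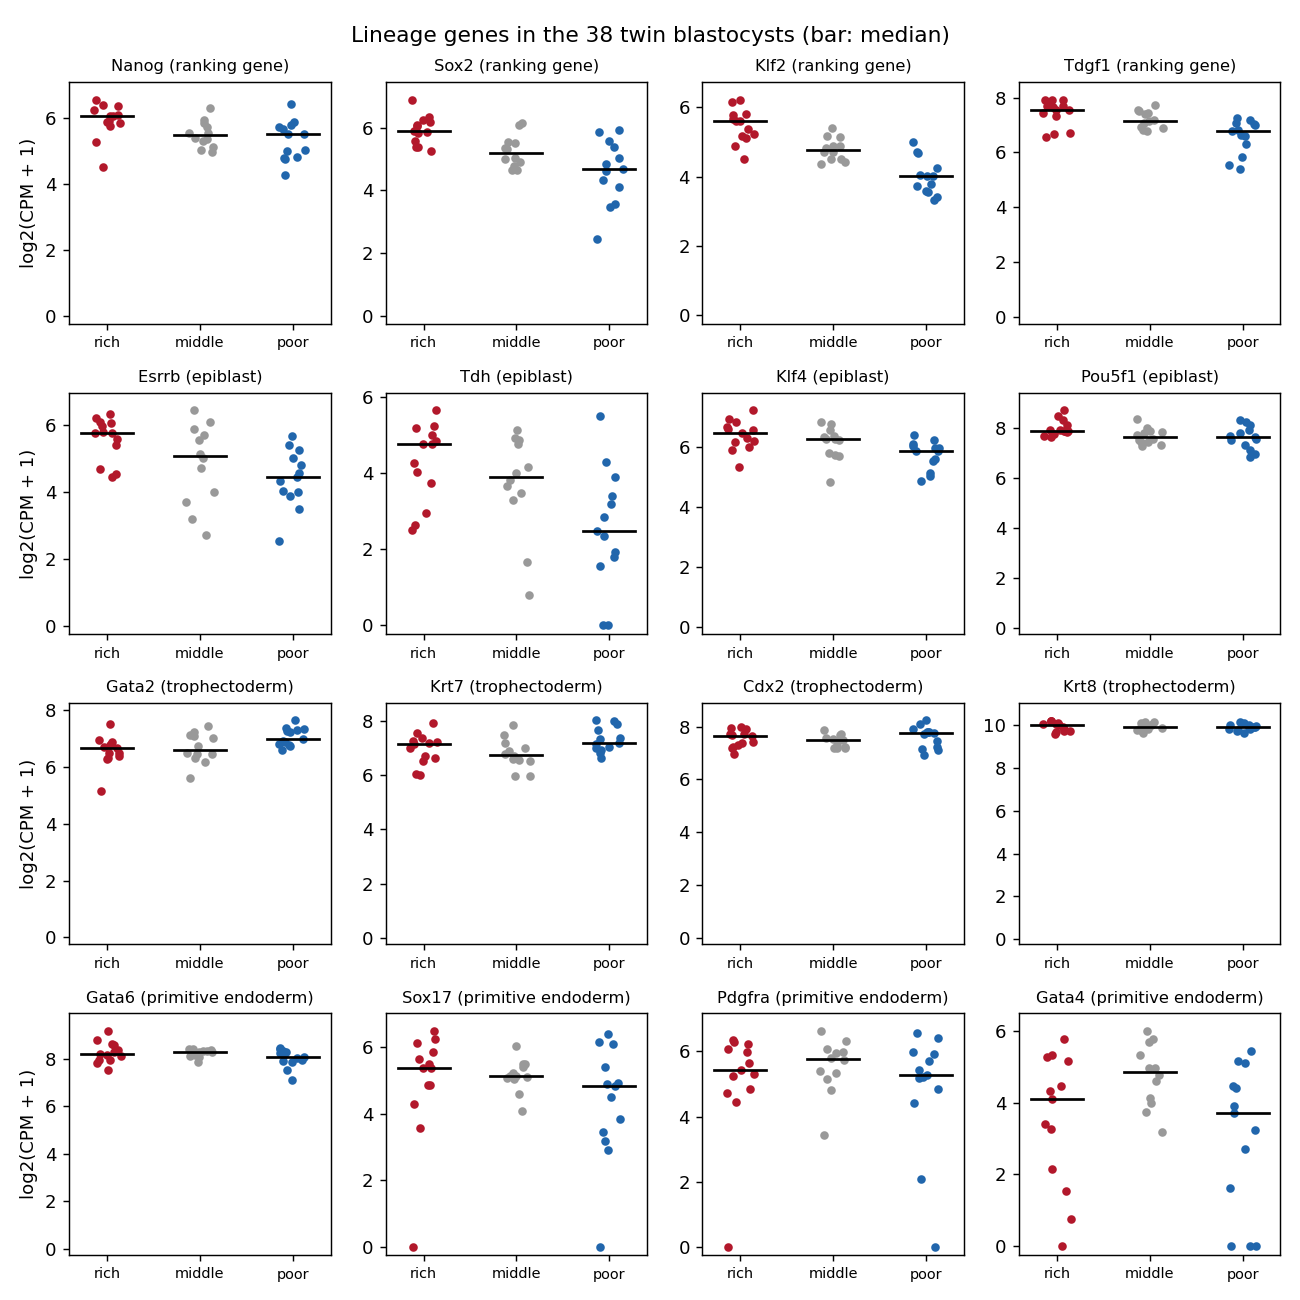
Levels (log2(CPM + 1), y axis) of the 4 ranking genes and of 4 epiblast, 4 trophectoderm and 4 primitive endoderm genes in the 13 epiblast-rich, 12 middle and 13 epiblast-poor twins, 1 point a twin, with the median as a bar. The ranking genes and Esrrb, Tdh and Klf4 have higher medians in rich than in poor twins, Gata2 a lower one, and Krt8 has medians of 9.99 and 9.90.

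Of 23 listed trophectoderm genes 21 were measured, and 16 had a lower and 5 a higher mean in rich twins, beside 52.2% of all measured genes higher. None was apart, beside only 0.128% of all genes higher and 0.108% lower. The median difference was -0.10, beside 0.01 over all genes. The mean level of the list was higher in the twin with the higher score in 9 of 19 pairs. The summed level of the 23 genes ran from 7219 to 9926 CPM in rich twins (median 8146) and from 7405 to 9918 CPM in poor twins (median 8698). Gata2, a zinc finger factor of trophoblast, differed most: it lay between 5.16 and 7.51 in rich twins (median 6.69) and between 6.59 and 7.65 in poor twins (median 6.99), a difference of -0.49. Krt7, a keratin of the trophoblast epithelium, differed by -0.34 and Dppa1 by -0.33. Cdx2, the factor that sets trophectoderm fate, differed by only -0.07 (7.55 ± 0.32 and 7.61 ± 0.40), and Gata3, its partner in this fate, by -0.04. Tfap2a, Tfap2c and Elf3, further factors of this epithelium, differed by -0.17, -0.18 and -0.11. Krt8 and Krt18, the 2 most abundant keratins, differed by 0.04 and -0.03, and Krt19 had the highest difference of the list, 0.15.

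Primitive endoderm genes varied more between twins than between the groups. Of 21 listed genes 20 were measured, and 15 had a higher and 5 a lower mean in rich twins, beside 52.2% of all measured genes higher. None was apart, beside only 0.128% of all genes higher and 0.108% lower. The median difference was 0.20, beside 0.01 over all genes. The list median depended on the ranking, being -0.09 without Klf2, 0.13 without Sox2, 0.37 without Tdgf1 and 0.55 without Nanog. It was 0.54 within the opposite pairs and 0.11 without ICSI_Co_twin_122a, and its sign turned only without Klf2. Their summed level was 1735 to 3694 CPM in rich twins (median 2365) and 1652 to 3123 CPM in poor twins (median 2321). Middle twins had the highest median, 2670 CPM. The mean log2(CPM + 1) of the list had a median of 5.21 in rich, 5.68 in middle and 5.25 in poor twins. The mean level of this list was higher in the twin with the higher score in 11 of 19 pairs. Gata6, the earliest factor of this lineage, lay between 7.53 and 9.17 in rich twins (median 8.18) and between 7.10 and 8.44 in poor twins (median 8.06), a difference of 0.25. The later factors were patchy. Gata4 had no count in 1 rich and 3 poor twins, Sox17 had none in 1 of each group, and Sox7, the latest, had none in 7 rich and 5 poor twins. Their differences were 0.44, 0.59 and -0.69, each below its SDs. Pdgfra, the receptor that marks primitive endoderm, differed by 0.28 (5.12 ± 1.66 and 4.84 ± 1.84), and Hnf4a, a liver and yolk sac factor, by 1.16 (2.85 ± 1.25 and 1.69 ± 1.53).

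No gene of the signalling and stress lists was apart, beside 0.128% of all measured genes higher and 0.108% lower, and 52.2% of all genes had a higher mean in rich twins. In the FGF and ERK list, 7 of 9 measured genes had a higher mean in rich twins (median difference 0.19). Etv5, an ERK target, differed by 0.79 beside SDs of 0.60 and 1.67. Grb2 differed by 0.25, Fgfr1 by 0.19, Dusp6 by 0.05 and Fgfr2 by -0.06, while the phosphatase gene Dusp4 was at -0.39. Of 11 Hippo pathway genes 8 were higher in rich twins (median 0.18), from -0.58 for the YAP target Ccn2 to 0.44 for the kinase gene Lats1. The factor Tead4 was at -0.07, its co-activators Yap1 and Wwtr1 at 0.25 and 0.20, Lats2 at 0.03 and Amot at 0.33. The 11 measured p53 targets had a median of 0.02, with Pmaip1, which encodes the death protein NOXA, highest at 1.11 beside SDs of 1.43 and 1.72, Trp53 itself at 0.33, Bax at 0.27, Cdkn1a at 0.02, Mdm2 at -0.14 and Phlda3 lowest at -0.21. The 11 junction and pump genes had a median of 0.03, from -0.44 for the water channel gene Aqp9 to 0.23 for Aqp3, with the claudins Cldn4, Cldn6 and Cldn7 at 0.03, 0.18 and 0.06 and Tjp1 and Ocln at -0.09 and -0.15. Only 3 of 8 formative genes were measured, with Fgf5 at 0 in all twins, and Otx2, Dnmt3b and Dnmt3a differed by 0.05, 0.02 and 0.27.

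**Figure D3:**
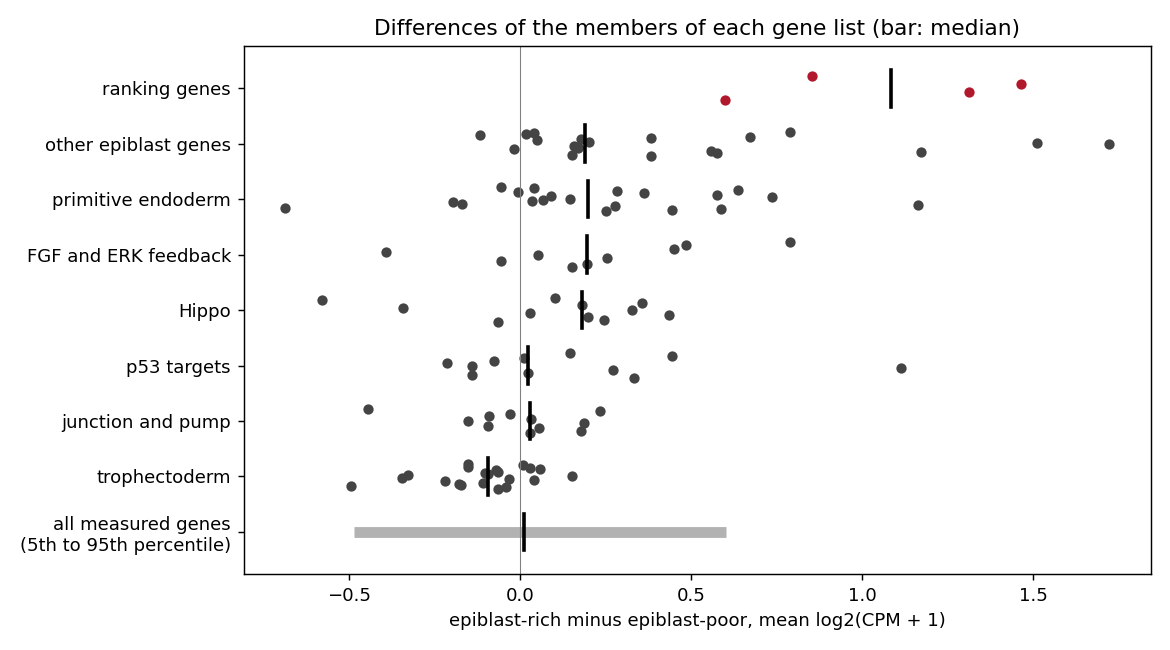
Difference in mean log2(CPM + 1) between epiblast-rich and epiblast-poor twins (x axis) of every measured member of 8 gene lists (rows), 1 point a gene, with the list median as a bar. The grey bar in the lowest row spans the 5th to the 95th percentile of all measured genes outside the ranking, -0.49 to 0.60; most list members lie within this range, and the ranking genes were chosen to lie to the right.

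Twins of 1 embryo fell on opposite sides about as often as unrelated twins. Of the 19 pairs, 5 (26.3%) had 1 epiblast-rich and 1 epiblast-poor twin, 5 had both twins in the same group (2 rich, 3 poor), and the other 9 had at least 1 middle twin. Among the 684 pairings of twins from different embryos, 164 (23.98%) lay on opposite sides. Scores of 2 twins of an embryo differed by 0.60 ± 0.42 on average (SD, n = 19 pairs; 0.04 to 1.21), and those of twins from different embryos by 0.58. Redrawing the partners of all twins at random 100000 times gave p = 1 for the number of opposite pairs and p = 0.823 for the mean difference (two-sided permutation tests, adjusted p = 1 for both over 2 measures). A likeness of twins in this score beyond that of unrelated twins was thus not detected; a p of this size does not show that there was none.

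The opposite pairs were 4 of 6 equatorial embryos, 1 of 6 contralateral embryos and none of 7 ipsilateral embryos. This split was not tested, and it depends on the edges of the groups. The largest gap in score of all pairs, 1.21, was in an ipsilateral pair of 1 middle and 1 poor twin. Twins of a pair differed on average by 0.72 ± 0.46 (SD, n = 6 pairs) after equatorial ICSI. The gap was 0.58 ± 0.39 (n = 7) after ipsilateral and 0.49 ± 0.47 (n = 6) after contralateral ICSI. These means lay within 1 SD of each other, and the gaps were not tested by site. By twin, 7 of 12 equatorial twins were rich and 4 poor, 2 of 12 contralateral twins were rich and 5 poor, and 4 of 14 ipsilateral twins were rich and 4 poor. The mean score of a pair was 5.88 ± 0.22 (SD, n = 6 pairs) after equatorial, 5.48 ± 0.38 (n = 6) after contralateral and 5.65 ± 0.39 (n = 7) after ipsilateral ICSI. The contralateral mean was 0.39 below the equatorial one (exact permutation p = 0.0390, adjusted p = 0.117 over 3 comparisons, two-sided), which did not pass the threshold of 0.05 after adjustment. Exact permutation p for ipsilateral against equatorial was 0.223 (adjusted 0.334) and for contralateral against ipsilateral 0.459 (adjusted 0.459).

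Within the 5 opposite pairs, both twins have the same genotype and ICSI site. Vamp4 and Zfp780b were lower in the epiblast-rich twin of all 5, and Esrrb, Pdpn, Triml1, Epb41l4a and Rbfaos were higher in all 5. Some of these orders were near ties or rested on few counts. Epb41l4a had 10 counts in both ICSI_Eq_twin_116a and its twin, and Triml1 had 5 in ICSI_Eq_twin_115b and 4 in its twin. Esrrb had 47 counts in ICSI_Eq_twin_116a and 55 in its twin, whose total count was larger. Esrrb was at 5.40 in ICSI_Co_twin_122b and 4.44 in ICSI_Co_twin_122a, at 6.20 in ICSI_Eq_twin_114a and 4.57 in ICSI_Eq_twin_114b, at 6.07 in ICSI_Eq_twin_115b and 5.24 in ICSI_Eq_twin_115a, at 5.79 in ICSI_Eq_twin_116a and 5.66 in ICSI_Eq_twin_116b, and at 4.68 in ICSI_Eq_twin_132b and 4.31 in ICSI_Eq_twin_132a, the rich twin first. The gap was widest in the pair of ICSI_Eq_twin_114a and narrowest in that of ICSI_Eq_twin_116a. Total counts were 866859 in ICSI_Eq_twin_114a and 2161062 in ICSI_Eq_twin_114b. Of the opposite pairs, only that of ICSI_Eq_twin_115b had more counts in the rich twin. In the same order of pairs, Vamp4 was at 3.58 and 5.68, at 3.78 and 4.22, at 3.30 and 4.69, at 3.65 and 5.17, and at 3.24 and 4.77. Ak3 was lower in the rich twin of 4 pairs, in ICSI_Eq_twin_116a only by 4.00 against 4.02, and was at 4.86 against 4.68 in ICSI_Eq_twin_132b. Tdh and Trps1 were higher in 4 of 5, Tdh being at 4.77 in ICSI_Eq_twin_132b and 5.50 in its twin, and Trps1 at 3.81 in ICSI_Eq_twin_115b and 4.02 in its twin. These pairs belong to the groups that chose the genes and are no separate evidence. The share of all measured genes with the same sign in all 5 pairs is not given here. With the SD of the 5 within-pair differences in place of the larger group SD in the size rule, 90 genes were higher and 84 lower. This is a different measure from the counts between the groups, so the numbers cannot be compared directly. Their shares of the 10139 measured genes are not given here. Over all 19 pairs, Pdpn was higher in the twin with the higher score in 16, Esrrb in 15, Triml1 in 15 and Tdh in 12, and Vamp4 in 2. For Cdx2 the number was 12 and for Krt8 11, and the median over all measured genes outside the ranking was 52.6% of pairs. The 19 pairs include the twins that chose the genes and are ordered by the same score, so these counts are no separate evidence. The numbers of the other named genes are not given here.

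**Figure D4:**
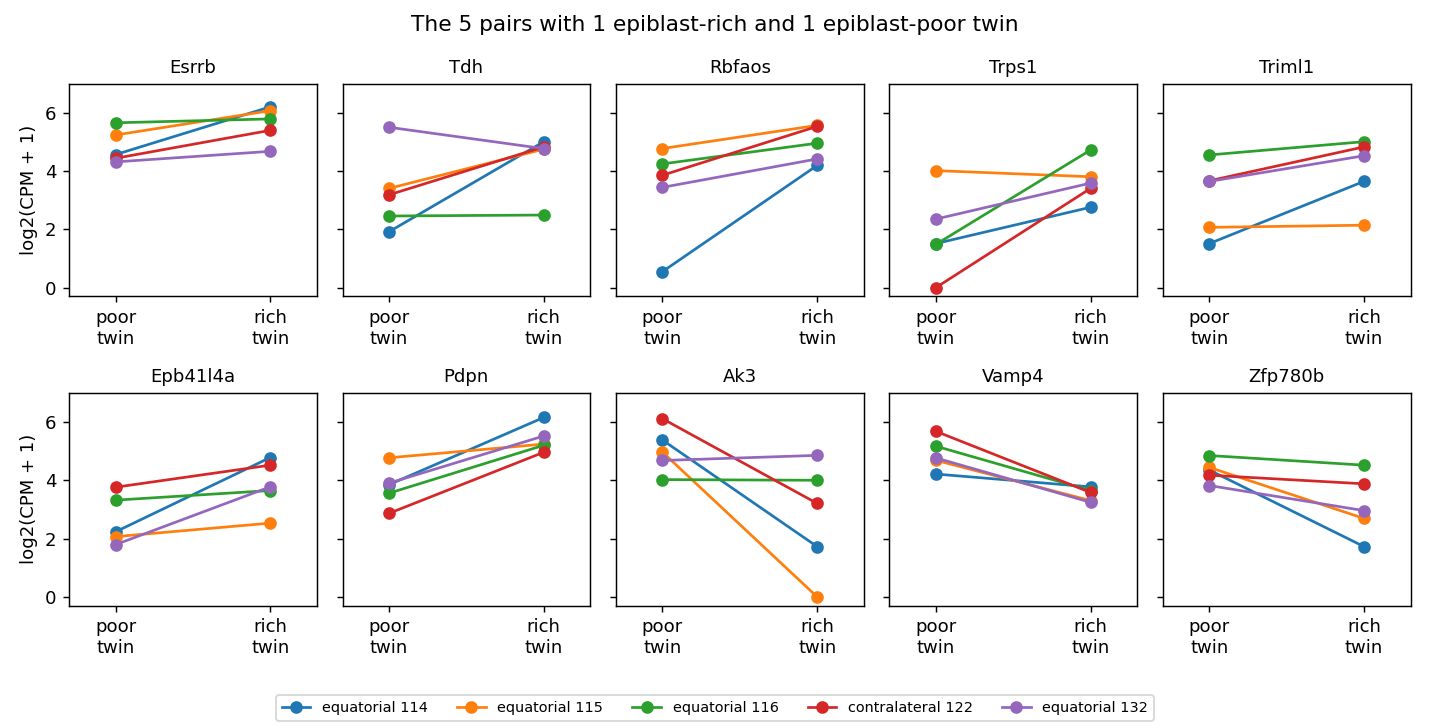
Levels (log2(CPM + 1), y axis) of the 10 named apart genes in the epiblast-poor (left) and epiblast-rich (right) twin of the 5 pairs with a twin in each group, 1 line a pair. Lines for Vamp4 and Zfp780b fall from the poor to the rich twin in all 5 pairs, and lines for Esrrb, Pdpn, Triml1, Epb41l4a and Rbfaos climb in all 5.

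The 31 intact blastocysts, which the ranking did not use, gave the test of whether other genes followed the score. Their scores reached far lower, from 0.46 to 5.93 with a median of 4.49, and 4 of them were under 2. They were also shallower, at 234099 to 1254428 counts, and the score correlated with depth across them (Pearson r = 0.384 with log2 total count and 0.531 with genes detected, 31 libraries, a description). Some intact blastocysts, unlike any twin, had no count of a ranking gene. They included the deepest library, ICSI_Co_intact_85, and the shallowest, ICSI_Co_intact_77. Whether a unit of score means the same in twins and intact blastocysts was not tested. Each gene was fitted with the score and the ICSI site in edgeR's quasi-likelihood test, and a slope is the log2 change per unit of score. Of 9321 genes 4 (0.0429%) rose and 14 (0.15%) fell with the score at an adjusted p under 0.05. Those that rose were Ifitm3 (slope 1.48 ± 0.29 SE, edgeR adjusted p = 0.0220), Ifitm2, Jam2 and Car2. Ifitm3 and Ifitm2 encode interferon-induced membrane proteins known from early germ and pluripotent cells, Jam2 a junction protein and Car2 a carbonic anhydrase. Among those that fell were Limk2, an actin-regulating kinase gene (slope -0.26 ± 0.05, adjusted p = 0.0302), the small GTPase gene Ralb, and Sfn, which encodes the epithelial protein 14-3-3 sigma. Between rich and poor twins Ifitm3 differed by 1.00 with an SD of 1.99 in rich twins, Jam2 by 0.60, Ifitm2 by 0.20 and Car2 by -0.12, and Limk2 by 0.10, opposite in sign to its slope. With log2 total count as a term 8 genes rose and 1 fell. Of the genes called above, 3 were called again with that term, Ifitm3, Ifitm2 and Jam2, and none of the 14 that fell. Limk2, Ralb and Sfn then had edgeR adjusted p of 0.0677, 0.207 and 0.359. With log2 genes detected as a term, 3 genes rose and 0 fell. With the 26 libraries of at least 400000 counts 1 rose (Etv5) and 0 fell, while 446 rose and 382 fell at an unadjusted p under 0.05 there. The part of depth in these calls was not tested further.

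None of the genes apart in twins passed the threshold in intact blastocysts. Of the 13 higher in rich twins 5 could be tested and 4 had a positive slope, and of the 11 lower 6 could be tested and 3 had a negative slope. Tdh had a slope of 0.99 ± 0.25 (edgeR adjusted p = 0.0642) and Esrrb of 0.79 ± 0.23 (adjusted p = 0.108). DESeq2 gave both an adjusted p under the threshold (0.00706 and 0.0117), as did edgeR with no filter (0.0183 and 0.0236). Without the site term edgeR gave 0.0253 and 0.0558. Neither gene passed in edgeR with log2 total count (0.103 and 0.0933) or log2 genes detected (0.112 and 0.305) as a term. Among the deeper libraries neither passed (0.217 and 0.195). Epb41l4a had a slope of 0.38 ± 0.23 and Ak3 of -0.43 ± 0.17 (adjusted p = 0.531 and 0.264). Triml1, Pdpn, Vamp4 and Zfp780b had slopes of 0.17, -0.10, -0.14 and 0.30, each with an edgeR adjusted p of at least 0.494. Trps1 and Rbfaos had too few counts to be tested.

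By list, no gene of the 3 lineages outside the ranking passed the threshold in intact blastocysts. Over all 9321 genes 51.8% had a positive slope, and 504 rose and 636 fell at an unadjusted p under 0.05. Of 19 tested epiblast genes outside the ranking 12 had a positive slope (median 0.19, beside 0.01 over all 9321 genes), and 10 rose and 1 fell at an unadjusted p under 0.05. The nearest to the threshold was Fgf4 (slope 1.03 ± 0.25, edgeR adjusted p = 0.0588), whose mean differed by 0.15 between rich and poor twins. Its adjusted p ranged from 0.000974 with DESeq2, through 0.0165 with no filter, 0.0256 without the site term and 0.0348 with log2 total count as a term, to 0.189 among the deeper libraries. Etv5, also of this list, had a slope of 0.57 (edgeR adjusted p = 0.370), and of 1.44 both with log2 total count as a term (adjusted p = 0.00171) and among the deeper libraries (adjusted p = 0.0463). Of 22 trophectoderm genes 20 had a negative slope (median -0.13), and 13 fell and 1 rose at an unadjusted p under 0.05. Krt7 came nearest (slope -0.27 ± 0.06, edgeR adjusted p = 0.0533), and Gata2 had a slope of -0.28 ± 0.08 (adjusted p = 0.107), both also lower in rich twins. Krt7 and Gata2 passed the threshold with DESeq2 (adjusted p = 0.0152 and 0.0257), with no filter (0.0110 and 0.0343) and without the site term (0.0376 and 0.0362), and not with log2 total count (0.223 and 0.168) or log2 genes detected (0.338 and 0.172) as a term, nor among the deeper libraries (0.392 and 0.0936). The trophectoderm median was -0.07 among the deeper libraries and -0.06 with log2 genes detected as a term. Of 19 primitive endoderm genes 18 had a positive slope (median 0.14; 3 rose at an unadjusted p under 0.05), with Gata6 at 0.11 ± 0.10 and Sox7 at 0.64 ± 0.20 (adjusted p = 0.693 and 0.136), the latter opposite in sign to its twin difference. These genes share libraries and depth, so the counts of signs are descriptions.

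**Figure D5:**
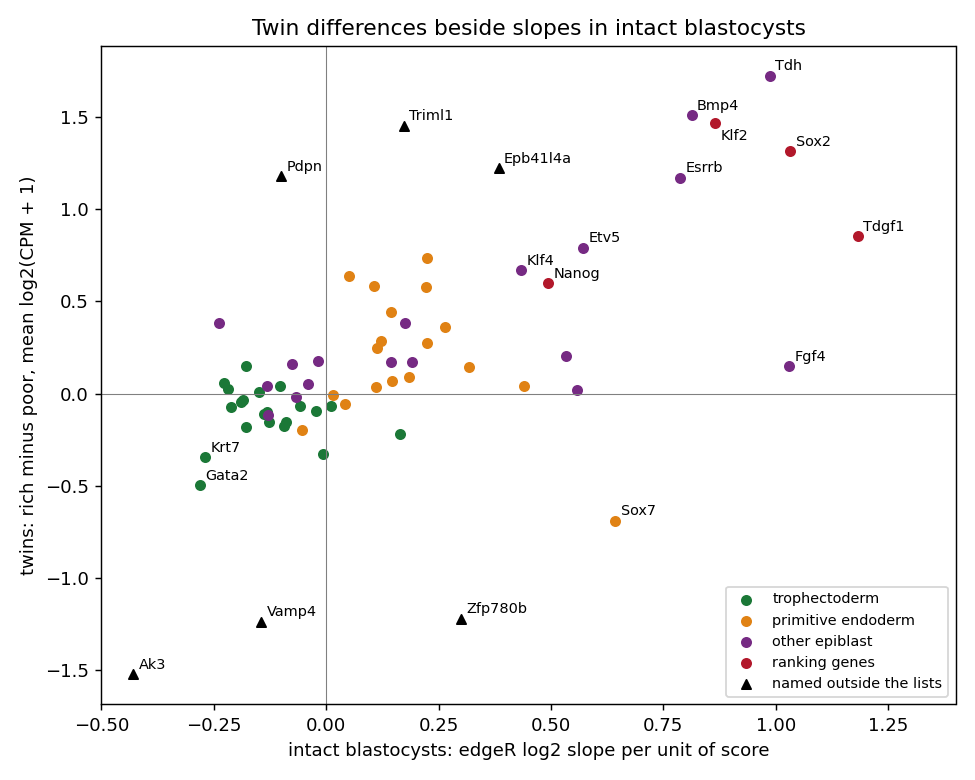
Difference between epiblast-rich and epiblast-poor twins (mean log2(CPM + 1), y axis) beside the edgeR log2 slope per unit of epiblast score in 31 intact blastocysts (x axis), 1 point a gene, coloured by list. Tdh and Esrrb lie at the upper right beside the ranking genes, Krt7 and Gata2 at the lower left, and Pdpn, Triml1, Vamp4 and Zfp780b have slopes between -0.14 and 0.30.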

How the data were processed

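Single twin and intact blastocysts were sequenced with a SMART-Seq kit as 100-base single-end reads on 1 plate. The authors trimmed the reads with Trimmomatic, aligned them with STAR 2.7.10b to GRCm38 with a GENCODE M23 annotation, without strand, and deposited raw counts per gene, unnormalized, for the libraries they retained. Library totals in this table equal those of their matrix in which reads of identical position were counted once, so these are collapsed reads, which can compress high levels; the kit adds no molecular identifiers. Groups, pairs and ICSI sites came from the sample labels. The members, gene lists and size rule were chosen with earlier results of these data known.

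CPM, scores and group means were computed here. Named genes are the first listed members, the extremes of each list, and up to 12 apart genes each way with a mean log2(CPM + 1) of at least 3 and no predicted-gene name; Klf4, Bmp4, Dppa5a, Krt7, Dppa1, Krt8, Krt18, Aqp3, Rbfa, Xist and the genes called in intact blastocysts were added after their values were seen. H1f8 was matched as H1foo. edgeR 4.0.16 (TMM, robust quasi-likelihood, Benjamini-Hochberg; genes with at least 10 counts in at least 8 of 31 libraries) tested slopes, and DESeq2 1.42.0 was an alternative. Both scripts were tested on simulated data. Exact permutation tests between ICSI sites used scipy 1.17.1, and the redraws of twin partners used numpy 2.4.6. Pairs share an embryo but no number across sites, so no block was fitted; the pairing was used within pairs. Nothing in the labels ties embryos to females, so p-values measure the spread between these embryos. Coordinates are from GENCODE M21 of GRCm38. Apart from the comparison of library totals above, the other deposited matrices were not used here.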

Additional observations from a re-analysis of the deposited data

How the results depend on the processing

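The number of genes apart between epiblast-rich and epiblast-poor twins depended on the settings, while the 10 named differences kept their sign in each alternative. Rbfaos, Trps1, Pdpn and Ak3 also kept a difference of at least 1 in size in each. Tdh, Triml1, Epb41l4a, Esrrb, Vamp4 and Zfp780b fell below 1 in size in at least 1 alternative. For example, Zfp780b was at -0.54 with 19 twins a group and Epb41l4a at 0.78 with a pseudocount of 5. The alternatives reuse twins that chose these genes, and leaving out the count filter cannot change a difference. The kept signs are therefore no separate evidence. The reference was 13 genes higher (0.128%) and 11 lower (0.108%) of 10139, and a pseudocount of 5 left 2 lower. No count filter gave 23 higher and 25 lower, but among more than 10139 genes. These 2 counts are therefore not shown to be larger shares than the reference. With 10 twins a group there were 32 and 22, and with 19 a group 6 and 1. Shares for the alternatives in twins are not given here. Ranking without Nanog gave 31 higher, ranking without Klf2 30 and 7, and ranking without Tdgf1 7 lower. Within the 5 opposite pairs 90 were higher and 84 lower, a setting in which 1 SD comes from 5 differences. Settings added after the data were seen gave 17 and 14 without ICSI_Co_twin_122a, 12 and 9 after thinning to equal depth, and 20 and 16 with 1 twin per embryo in a group. In intact blastocysts, where 4 genes rose and 14 fell, 219 (1.07%) and 227 (1.11%) did with no filter, 23 (0.247%) and 82 (0.88%) without a site term, 8 (0.0858%) and 1 (0.0107%) with log2 total count as a term, 1 (0.0108%) and 0 among deeper libraries, and 3 and 0 with log2 genes detected as a term (added later). DESeq2 called 194 genes, of which 88 rose (0.944% up, 1.14% down). Of the 18 genes called, 3 were called with the depth term and 18 with DESeq2. Among the 8 genes apart in twins and the 18 called genes whose slopes were recomputed here, those that changed sign were Vamp4 with the depth term (0.0946) and among deeper libraries (0.0968), and Triml1 (-0.0145) and Pdpn (0.0578) with genes detected as a term; slopes of other list genes near 0, such as Dppa1 and Xist, also changed sign with the depth term. The causes were not tested. The pair tests and the site comparisons kept their direction and side of the threshold in every alternative run. Depth limits genes near the minimum of 10 counts.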

Other observations

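Xist, whose RNA acts in X inactivation, was chosen after its values were seen. The 4 Y-linked genes Ddx3y, Eif2s3y, Kdm5d and Uty gave more than 50 counts together in both twins of 10 pairs and at most 1 count in both twins of 9 pairs, so no pair was split, and 7 rich and 9 poor twins had Y-linked counts. Among twins with Y-linked counts, Xist lay between 2.63 and 7.04 log2(CPM + 1) in the epiblast-rich (median 6.65) and between 0.93 and 6.56 in the epiblast-poor twins (median 4.48). Among twins without them it lay between 6.75 and 8.33 (median 7.84) and between 6.56 and 8.24 (median 7.65). In all 5 opposite pairs Xist was higher in the rich twin: 7.04 in ICSI_Co_twin_122b and 0.93 in its twin, 6.79 in ICSI_Eq_twin_114a and 4.18, 6.65 in ICSI_Eq_twin_115b and 5.08, and 4.77 in ICSI_Eq_twin_132b and 3.07, all with Y-linked counts, and 8.33 in ICSI_Eq_twin_116a and 8.01, without them. Outside the opposite pairs the order was mixed. In pairs of 1 rich and 1 middle twin, Xist was at 3.53 and 5.20, 6.75 and 6.96, 7.91 and 6.77, and 7.77 and 7.13, the rich twin first. Both twins of 1 equatorial embryo with Y-linked counts were rich, and their Xist was at 2.63 and 6.93. The number over all pairs is not given here. In intact blastocysts, with both sexes together, Xist had a slope of -0.02 ± 0.16 with the score (edgeR adjusted p = 0.976). Counting ignored strand, and Tsix overlaps Xist on the opposite strand, so reads of both cannot be told apart in the overlap; Tsix itself had 0 to 27 counts in a twin (median 3). The difference between rich and poor twins was not tested.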
